A study of Mus musculus with 24 samples.

Results

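Prefrontal cortex transcripts of mice carrying 1 mutant copy of the kinase gene Dyrk1a were compared with those of wild-type mice, with both genotypes on vehicle. The heterozygous (HT) mice carry 1 copy of the allele I48X, given as Dyrk1a+/I48X by the series, and HT and wild-type (WT) mice alike are of the strain C57BL/6J and were taken at postnatal day 40. There were 6 HT vehicle libraries and 6 WT vehicle libraries, 3 from females and 3 from males in each, which are 12 of the 24 libraries of the series. The 12 not used here are HT libraries from mice given fluoxetine or lithium. All 12 compared carry the same batch label. The sources used here do not give the vehicle, the length of dosing or the hour of collection. Whether libraries come from different animals is not stated, so a p-value here speaks of the spread among these libraries, some of which may be technical. Libraries are named by genotype, sex and replicate number, as in HT female 1.

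DYRK1A is a protein kinase that phosphorylates serines and threonines and is active in the nucleus and the cytoplasm of neurons. It is dose-sensitive: the human gene lies on chromosome 21, and loss of 1 copy causes a syndrome with small head size, intellectual disability and autism. Its reported targets include the NFAT factors that calcineurin activates, cyclin D and the LIN52 subunit of the DREAM complex in the cell cycle, and proteins of synaptic vesicle recycling. In cortex it is known for roles in neuron production, dendrite growth and synapse formation.

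The allele name gives an isoleucine at codon 48 and a stop in its place. In the GENCODE M21 transcripts Dyrk1a-201 and Dyrk1a-202, which code for 763 amino acids from 12 exons, codon 48 is ATA, an isoleucine codon, in exon 3 of 12. The wild-type reference sequence around it (GRCm38, chr16:94659598-94659660, + strand) is shown because it places the allele near the start of the coding sequence, well ahead of the kinase domain. The capitals mark codon 48, and the mutant bases are not shown.
Dyrk1a codon 48: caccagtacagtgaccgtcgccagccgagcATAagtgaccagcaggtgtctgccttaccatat

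HT libraries did not hold less Dyrk1a RNA than WT libraries. The gene (ENSMUSG00000022897, chromosome 16, 94570010 to 94695517 on GRCm38) stood at 2325, 2254 and 2394 normalised read counts in HT females and 2372, 2431 and 2357 in HT males. It stood at 2349, 2088 and 2167 in WT females and 2259, 2168 and 2170 in WT males. The ranges overlapped, since WT female 1 was above HT female 1 and HT female 2 and WT male 1 was above HT female 2. The means were 2355 ± 61.2 in HT and 2200 ± 90.8 in WT (SD, n = 6 each), a log2 fold change of 0.10 ± 0.04 (SE) or 7.06% higher in HT, and all 6 HT libraries lay above the WT mean. A two-sided exact permutation test over the 924 arrangements gave p = 0.0108, while Dyrk1a did not pass when adjusted over all genes (limma adjusted p = 1). Since RNA with an early stop can persist, the level of Dyrk1a is no check on which libraries carry the allele.

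**Figure D1:**
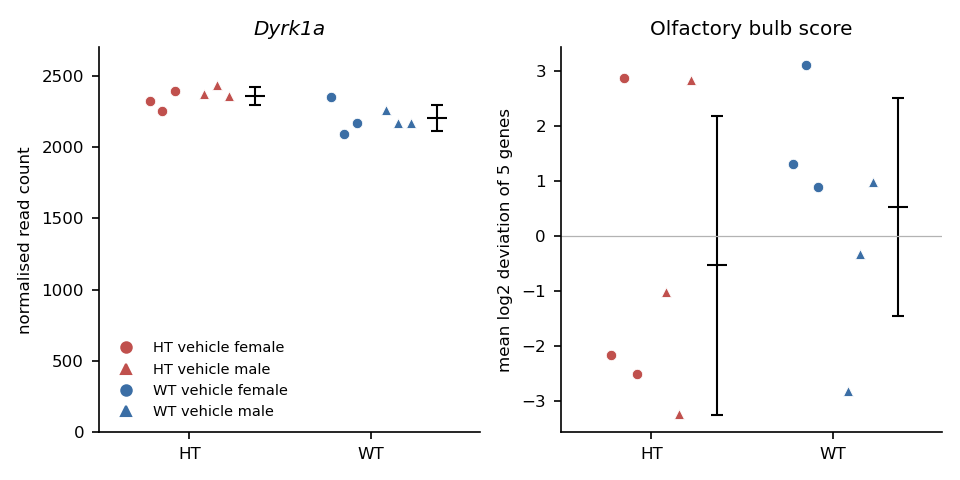
Dyrk1a in normalised read counts (left) and the olfactory bulb score in log2 units (right) in each HT and WT vehicle library, with circles for females, triangles for males and bars for the mean ± SD of 6 libraries. Dyrk1a averaged 2355 in HT and 2200 in WT, and the bulb score spread from -3.24 to 2.87 in HT and from -2.81 to 3.13 in WT.

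The recovered depth was 24771291 to 31705056 reads per library. All 12 libraries held the cortical excitatory neuron markers at high levels, with Slc17a7 at 33042 to 50048 in HT and 31306 to 50067 in WT. They also held varied amounts of genes of the olfactory bulb, the neighbouring forebrain region that receives smell input. The bulb score of a library is the mean log2 deviation of Cdhr1, Doc2g, Eomes, Th and Scgn, and these 5 genes set it. It was highest in HT female 2, HT male 3 and WT female 2, where Eomes stood at 1552, 1394 and 1619, against 0 to 50.9 in the other 4 HT libraries and 3.2 to 344 in the other 5 WT libraries. The score averaged -0.53 ± 2.72 in HT and 0.53 ± 1.98 in WT (SD, n = 6 each), a difference of -1.06 (two-sided exact permutation p = 0.442). With genotype and sex in the model, 5939 of 16833 genes (35.3%) had a slope on this score at an adjusted p under 0.05 (limma). Other libraries stood apart in other tissues: Ttr, a choroid plexus gene, stood at 3407 in HT female 1 and at 74.3 or less elsewhere, and Drd2, of striatal neurons, at 1379 in HT male 1 and 371 in WT female 1 against 111 or less in the rest. Folr1, Kcne2, Otx2, Slc4a5 and Sostdc1, also choroid plexus genes, were under the level for testing.

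No gene passed the test of genotype across all genes. Of the 16833 genes that averaged 10 normalised counts or more, limma called 0 at an adjusted p under 0.05 (0.0%), with 491 (2.92%) at an unadjusted p under 0.05, of which 271 were higher in HT (1.61%) and 220 lower (1.31%). edgeR called 0 with 495 at an unadjusted p under 0.05, and DESeq2 called 1 higher in HT (0.00594%), the transcriptional repressor gene Mxd4. The standard error had a median of 0.092 on the log2 scale, and for 13964 genes (83.0%) the 95% interval lay within 1.5-fold either way. The median log2 fold change over all genes tested was -0.002, and 48.8% were higher in HT.

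In 17 genes (0.101%) all 6 HT libraries lay above all 6 WT libraries, and in 15 (0.0891%) all lay below. Full separation in either direction has a two-sided exact permutation p of 0.00217, the smallest that 924 arrangements allow. That is also the share of genes expected to separate with no genotype effect, both directions together. Shares of this size, for 1 direction each, thus arise with no effect. Mxd4, whose protein pairs with MAX and opposes MYC, was the gene with the smallest p in the higher direction. Its level was 3796, 3885 and 3741 in HT females and 3416, 3449 and 3921 in HT males, against 3239, 3226 and 3122 in WT females and 2943, 3102 and 3238 in WT males. The lowest HT library was above the highest WT library, and the log2 fold change was 0.23 ± 0.04 (limma adjusted p = 1). Dnaaf2, which serves the assembly of ciliary dynein arms, stood at 63.8 to 85.9 in HT and 44.3 to 62.8 in WT, with no overlap and a log2 fold change of 0.61 ± 0.12. The lectin gene Cd209c, of a family of close paralogs among which reads can be split, stood at 19.9 to 24.7 in HT and 11.6 to 16.9 in WT. Others with small p in this direction were the zinc finger gene Zfp958 (0.29 ± 0.07), Eva1a (0.37 ± 0.09), a regulator of autophagy and cell death, the lipid-binding gene Sec14l3, Prr22 and 6030443J06Rik. Gm17024, the ubiquitin-conjugating enzyme gene Ube2t and Fam221b also did not overlap, at log2 fold changes of 0.66, 0.46 and 0.44.

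In the lower direction the smallest p belonged to March11, a membrane-bound ubiquitin ligase gene, at 69.7 to 90.7 in HT and 92.1 to 119.8 in WT (log2 fold change -0.43 ± 0.08). Stat4, a transcription factor of cytokine signalling, stood at 18.8 to 29.8 in HT and 32.4 to 59.2 in WT (-0.78 ± 0.15). Neither overlapped between genotypes. Spred2, an inhibitor of the RAS and ERK pathway, stood at 2428, 2287 and 2704 in HT females and 2567, 2859 and 2476 in HT males, against 2933, 2860 and 3200 in WT females and 3093, 3051 and 2863 in WT males. HT male 2, the highest HT library, was just under WT female 2, the lowest WT library, and the log2 fold change was -0.24 ± 0.05. Homer1, a scaffold of the postsynaptic density that binds group I glutamate receptors, stood at 3462, 2938 and 3525 in HT females and 3330, 4484 and 3047 in HT males, against 4827, 4564 and 4723 in WT females and 4339, 4157 and 4119 in WT males. HT male 2 alone was within the WT range, and the log2 fold change was -0.37 ± 0.09. Crhbp, the binding protein of corticotropin-releasing hormone, did not overlap at 334 to 367 in HT and 379 to 485 in WT (-0.25 ± 0.06). Heca, the ubiquitin-activating enzyme gene Uba6 and the adhesion gene Nectin1 had all 6 HT libraries below the WT mean with overlapping ranges. The low-count genes Slfn3, of a multigene family, C1rl and Map3k15 did not overlap. Each of these genes had an adjusted p of 1 in the fit without the bulb score.

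**Figure D2:**
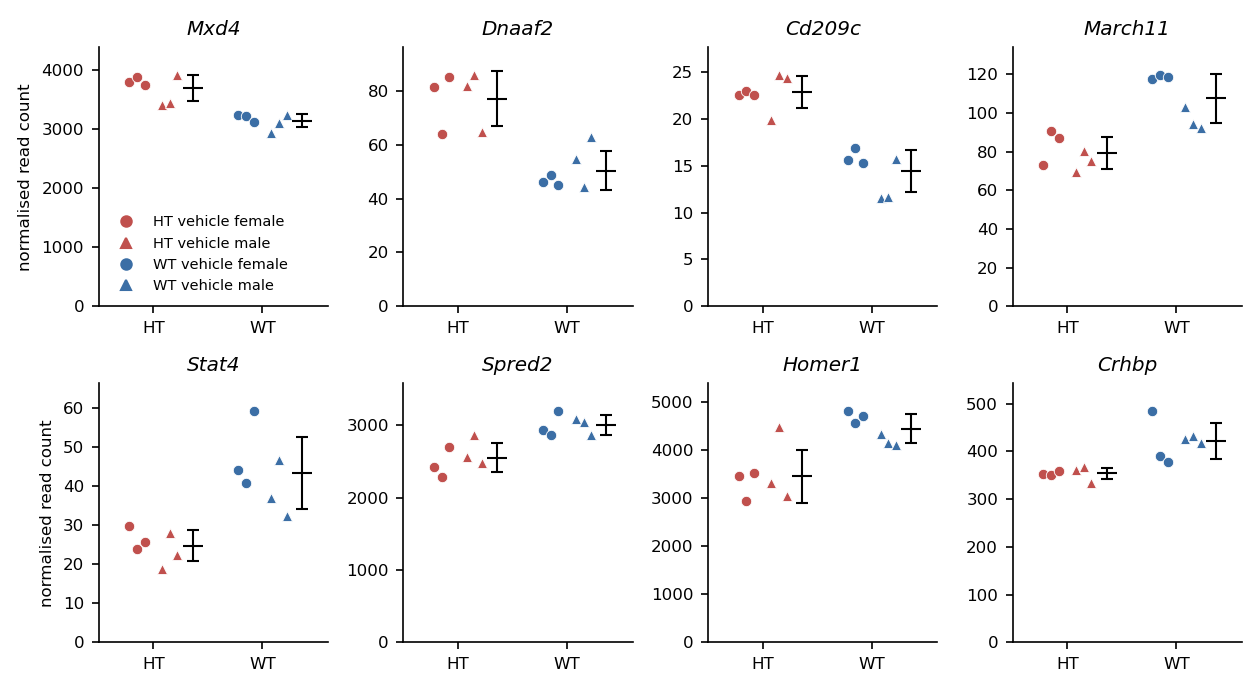
Normalised read counts of 8 genes among those with the smallest unadjusted p, in each HT and WT vehicle library, with circles for females, triangles for males and bars for the mean ± SD of 6 libraries; axes start at 0. In all panels but that of Homer1 the genotypes do not overlap, and in Homer1 HT male 2, at 4484, lies within the WT range.

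With the bulb score as a covariate beside sex, limma called 4 genes (0.0238%), 3 higher and 1 lower in HT, each at an adjusted p of 0.0363. With the score in the model, 2177 genes (12.9%) were at an unadjusted p under 0.05, 956 higher (5.68%) and 1221 lower (7.25%), and the median standard error was 0.072. edgeR called the same 4 genes, 3 higher (0.0178%) and 1 lower (0.00594%). DESeq2 called 261, with 48 higher (0.285%) and 213 lower (1.27%), among them Mxd4 and Hivep1, and gave no adjusted p for Ucp2 and Trp53inp1.

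Ucp2 (chromosome 7, 100493337 to 100502020), an inner mitochondrial membrane carrier, rose in HT with the bulb score in the model. It stood at 704, 869 and 714 in HT females and 672, 551 and 765 in HT males, against 667, 674 and 549 in WT females and 436, 522 and 528 in WT males. The raw ranges overlapped, and Ucp2 was higher in libraries with more bulb RNA (slope 0.067 log2 per unit of the score, limma adjusted p = 0.00101). With that slope removed all 6 HT libraries lay above all 6 WT libraries. Ucp2 was called in the fit that gave the slope, so this separation is no added support. The log2 fold change of Ucp2 was 0.41 ± 0.05, or 1.33-fold, against 0.34 ± 0.10 without the covariate. Mxd4 (chromosome 5, 34173883 to 34187720) rose by 0.25 ± 0.03 on the log2 scale in the same fit, with a bulb slope of 0.019 that did not pass (adjusted p = 0.0815).

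Trp53inp1 (chromosome 4, 11156431 to 11174379), a stress-induced target of p53 that also acts in autophagy, rose in HT in this fit. It stood at 532, 749 and 473 in HT females and 424, 428 and 697 in HT males, against 435, 525 and 444 in WT females and 345, 366 and 397 in WT males. Its bulb slope was 0.10 and its log2 fold change 0.48 ± 0.07, or 1.39-fold. Hivep1 (chromosome 13, 42052021 to 42192537), a large zinc finger protein that binds enhancers of the NF-kappaB type, fell in HT in the same fit. It stood at 2366, 1969 and 2400 in HT females and 2383, 2714 and 2010 in HT males, against 2685, 2422 and 2682 in WT females and 2834, 2793 and 2618 in WT males. HT male 2, the library with the lowest bulb score, was the highest HT library for Hivep1, and the log2 fold change was -0.27 ± 0.04, or 0.827-fold.

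The 4 calls depended on single libraries. None was kept without HT female 1, HT female 2, HT female 3, HT male 3, WT female 3, WT male 2 or WT male 3, where the count was 0, and the count was 1 without WT female 1, 2 without WT male 1, 3 without HT male 1, 3 without HT male 2 and 90 without WT female 2. Over the 12 omissions the log2 fold changes ran from 0.38 to 0.44 for Ucp2, 0.23 to 0.27 for Mxd4, 0.42 to 0.53 for Trp53inp1 and -0.31 to -0.26 for Hivep1. Without the 3 libraries of the highest bulb score, and without the 3 of the highest Drd2 or Ttr relative to their medians (HT female 1, HT male 1 and WT male 3), the count was also 0.

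**Figure D3:**
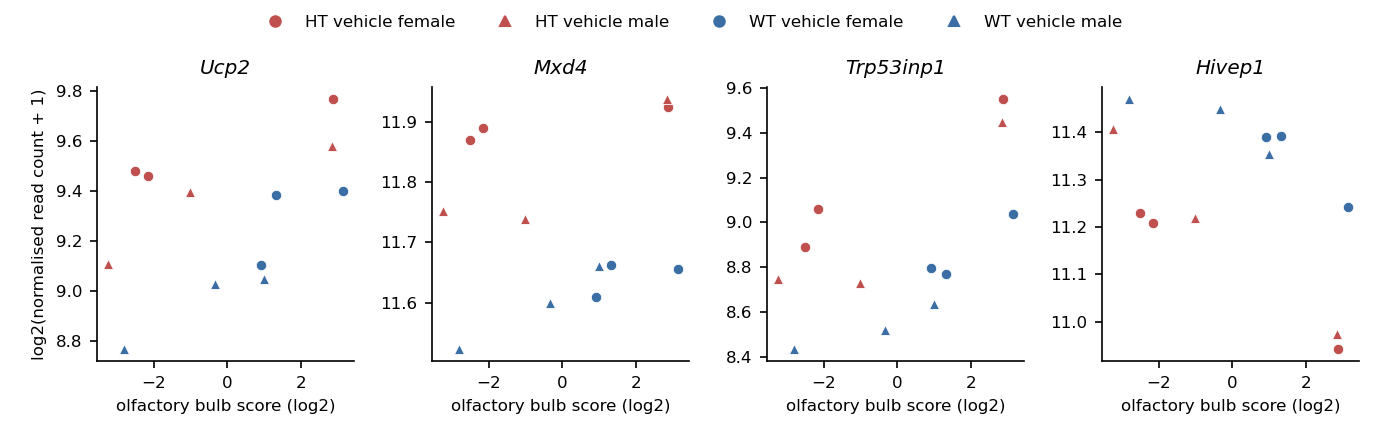
log2(normalised read count + 1) of the 4 genes called with the bulb score as covariate, against the olfactory bulb score, 1 point per HT or WT vehicle library, with circles for females and triangles for males. At like bulb scores the HT libraries lie above the WT libraries for Ucp2, Mxd4 and Trp53inp1 and below them for Hivep1; the vertical axes do not start at 0.

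Next in order with the bulb score were Etl4, Hs3st2, which modifies heparan sulfate, and Synj2, a phosphoinositide phosphatase, each lower in HT at an adjusted p of 0.0518, then Rgs17, a brake on G protein signalling (-0.21 ± 0.04, adjusted p = 0.0976), and Spred2 (-0.26 ± 0.04, adjusted p = 0.0996). In the higher direction they were the complement gene C4b (0.44 ± 0.08) and Fam214a (0.31 ± 0.06), both at an adjusted p of 0.168. These genes were picked by p in the fit that gave the bulb slope, so separation after its removal is no added support. Once the bulb slope was removed, the genotypes did not overlap in Etl4, Hs3st2, Synj2, Rgs17 and Fam214a and overlapped in C4b. Without that step C4b averaged 613 ± 273 in HT and 520 ± 197 in WT, where the 2 highest values, 1021 and 870, were in the bulb-rich HT female 2 and WT female 2.

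Among DYRK and CLK kinases and their partner Dcaf7, a list that counts Dyrk1a itself, 7 of 9 genes tested were higher in HT without the bulb score, at a median log2 fold change of 0.021, and 7 of 9 with it, at a median of 0.080. The first median was at or below 0 without HT male 3 (-0.003) and without the 3 bulb-highest libraries (-0.008). By sex the kinase median stood at -0.016 (females) and 0.051 (males). Dcaf7, the scaffold protein that binds DYRK1A, stood at 8218 to 8861 in HT and 7873 to 8238 in WT (0.08 ± 0.03, at an unadjusted p under 0.05), and Dyrk1b at 890 ± 63.0 in HT and 828 ± 77.4 in WT. Of 25 genes tested on a list made for reported DYRK1A substrates, 9 were higher and 16 lower (median -0.011). In this list 2 were at an unadjusted p under 0.05, both lower (background 1.31%) and both of the SPRED family. Whether the SPRED proteins are themselves substrates of DYRK1A was not checked here, so the 2 are not read as a result on substrates. Spred1, the paralog of Spred2, averaged 3552 ± 395 in HT and 4062 ± 211 in WT (-0.20 ± 0.07), and HT female 3 and HT male 2, at 3757 and 4212, were within the WT range. Notch1, the receptor of neural progenitor maintenance, was on the other side at 0.18 ± 0.09. With the bulb score, 5 of the 25 were at an unadjusted p under 0.05 in the lower direction (background 7.25%). They included Synj1, which uncoats synaptic vesicles, and the microtubule protein gene Map1b, at -0.16 and -0.19. In the higher direction 1 was at such a p (background 5.68%), Notch1 at 0.24 ± 0.06.

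The calcineurin and NFAT genes, where DYRK1A opposes the phosphatase, divided evenly without the bulb score, with 7 of 14 higher and a median of 0.008. Nfatc2 stood at 0.13 ± 0.13, and the calcineurin subunit gene Ppp3cb at -0.06 ± 0.08. With the bulb score 8 of 14 were higher, at a median of 0.018. In that fit 1 was at an unadjusted p under 0.05 in the higher direction (background 5.68%) and 3 in the lower (background 7.25%). The DREAM complex and G1 regulators also stood near all genes, with 9 of 17 higher and a median of 0.014 without the bulb score (-0.041 in females and 0.038 in males). With it, 14 of 17 were higher, at a median of 0.042 against 0.001 for all genes. Ccnd2, cyclin D2, averaged 2608 ± 180 in HT and 2438 ± 254 in WT, and the cell cycle inhibitor Cdkn1a 712 ± 270 in HT and 888 ± 397 in WT. None of the 14 calcineurin and NFAT genes or the 17 DREAM and G1 genes was at an unadjusted p under 0.05 in the fit without the bulb score (limma).

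**Figure D4:**
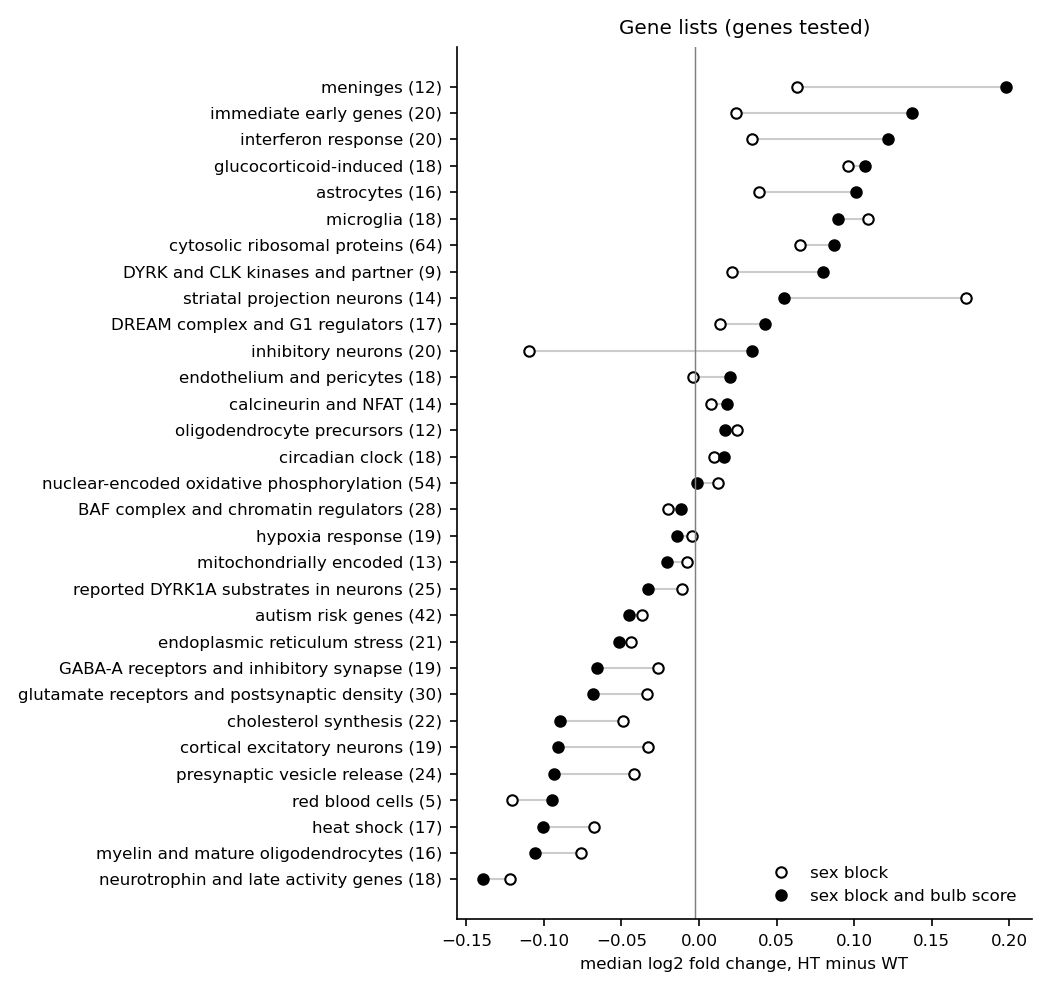
Median log2 fold change, HT minus WT vehicle, of the genes tested in each list, with open points for the fit with a sex block, filled points for the fit with the bulb score added and a vertical line at the median of all genes, -0.002. Late activity genes lie lowest at -0.12 and -0.14, and the choroid plexus list and the 5 genes of the bulb score are left out.

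The 18 neurotrophin and late activity genes, many of which neurons induce in the hours after activity, were all tested. The list also holds a neurotrophin receptor gene. In HT 18 of 18 were lower, at a median of -0.12 against -0.002 for all genes. Of them 5 were at an unadjusted p under 0.05 in that direction, against a background of 1.31%: Homer1, Sorcs3, Pcsk1, Bdnf and Nptx2. This list, like the others here, was written with earlier results of these data known. Its counts are thus a description and no independent support. Bdnf, brain-derived neurotrophic factor, stood at 624.5, 490 and 660 in HT females and 546, 760 and 592 in HT males, against 807, 703 and 727 in WT females and 751, 642 and 770 in WT males (-0.27 ± 0.10). HT male 2 was again the highest HT library. Pcsk1, a prohormone convertase, stood at 1056 to 1474 in HT and 1292 to 1657 in WT (-0.26 ± 0.08). Sorcs3, a sorting receptor of the postsynaptic membrane, stood at 1262 to 1396 in HT and 1375 to 1556 in WT (-0.14 ± 0.04), and 6 of 6 HT libraries were under the mean of WT. With the bulb score 16 of 18 were lower, at a median of -0.14, and 7 were at an unadjusted p under 0.05 (background 7.25%). In females the median was -0.27, with 15 of 18 lower and 7 at an unadjusted p under 0.05 (background 1.74%), and in males -0.11, with 12 of 18 lower and 1 at such a p (background 0.76%). The difference between the sexes was not tested for the list. Leaving out single libraries moved the first median between -0.16 and -0.10. None of the 18 passed the adjusted test in either fit.

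The cyclic AMP response element TGACGTCA, bound by CREB, is a known feature of promoters of such genes. Promoters, 250 bases before to 50 after the gene start (RefSeq, GRCm38.p6), were matched for 12 of the 18 late activity genes and searched on both strands for this element and for the E-box CACGTG, the motif of the MYC, MAX and MXD proteins. The element was in 3 of the 12 (Pcsk1, Scg2 and Cartpt) and in 3.09% of 12170 promoters of tested genes. The E-box was in 2 of the 12, Gadd45b and Ptgs2, and in 9.71% of all, and the motifs overlapped at 2 places. Of the 3 genes with the response element, Pcsk1 alone was at an unadjusted p under 0.05 in the fit without the bulb score. In that fit Scg2 stood at -0.24 ± 0.15 and Cartpt at -0.08 ± 0.39. A link of either motif to the change in level was not tested. Of the 4 called genes, 3 had a promoter in the table, and Mxd4 alone of these held an E-box. The 3 sequences show where the matches lie, 219 bases before the start in Mxd4 (chr5:34187661-34187960, - strand), 78 in Pcsk1 (chr13:75089607-75089906, + strand) and 68 in Scg2 (chr1:79439977-79440276, - strand). Capitals mark the match, which is a description of the letters and not a shown binding site.
Mxd4 promoter: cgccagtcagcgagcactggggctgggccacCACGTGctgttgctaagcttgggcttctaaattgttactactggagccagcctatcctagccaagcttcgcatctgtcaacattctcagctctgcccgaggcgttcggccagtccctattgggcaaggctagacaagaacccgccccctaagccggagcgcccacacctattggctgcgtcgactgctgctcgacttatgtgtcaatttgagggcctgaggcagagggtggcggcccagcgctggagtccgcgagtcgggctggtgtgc
Pcsk1 promoter: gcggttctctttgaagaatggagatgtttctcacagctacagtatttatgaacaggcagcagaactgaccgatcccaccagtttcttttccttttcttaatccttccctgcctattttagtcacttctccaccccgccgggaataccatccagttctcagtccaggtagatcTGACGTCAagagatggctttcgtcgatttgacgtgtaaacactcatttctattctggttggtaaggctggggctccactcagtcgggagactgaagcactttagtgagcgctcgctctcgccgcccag
Scg2 promoter: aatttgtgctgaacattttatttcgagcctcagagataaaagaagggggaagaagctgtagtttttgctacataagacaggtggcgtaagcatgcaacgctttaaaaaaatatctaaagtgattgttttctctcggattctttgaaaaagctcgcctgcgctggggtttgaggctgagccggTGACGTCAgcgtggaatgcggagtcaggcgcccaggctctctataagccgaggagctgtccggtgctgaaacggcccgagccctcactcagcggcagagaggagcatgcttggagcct

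The immediate early genes, the fast transcription factors and regulators of the same response, had no common direction, with 10 of 20 higher in HT and a median of 0.024. With the bulb score 14 of 20 were higher, at 0.14. The sexes differed in direction, a difference not tested for the list. In females 2 of 20 were higher (median -0.42) and in males 20 of 20 (median 0.40). Of these, 6 in females were at an unadjusted p under 0.05, all lower (background 1.74%), and 4 in males, all higher (background 1.22%). By library score, HT females stood at -0.06, 0.15 and -0.05 and WT females at 0.51, 0.81 and -0.04, while HT males stood at -0.07, -0.27 and 0.40 and WT males at -0.78, -0.49 and -0.10. The WT females lay above the WT males, and all 6 HT scores were within the WT range. The median over both sexes was -0.085 without HT male 3, -0.063 without WT male 1 and -0.012 without WT male 2. Fos, the classical member, stood at 887, 1722 and 783 in HT females and 1649, 2894 and 874 in WT females, and at 989, 743 and 2112 in HT males and 316, 619 and 1041 in WT males. The orphan nuclear receptor Nr4a3 stood at 702 to 743 in HT females and 968 to 1738 in WT females (-0.94 ± 0.18), and at 498 to 645 in HT males and 524 to 585 in WT males (0.01 ± 0.18). Its difference between the sexes was -0.94 ± 0.26 (limma unadjusted p = 0.00375, adjusted p = 0.973). The phosphatase gene Dusp1 stood at -0.01 ± 0.27 in females and 0.81 ± 0.27 in males. WT female 2, with the highest score of all, and HT male 3, with the highest among HT, are both rich in bulb RNA, and with the bulb score in the model the medians were -0.18 in females and 0.37 in males.

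**Figure D5:**
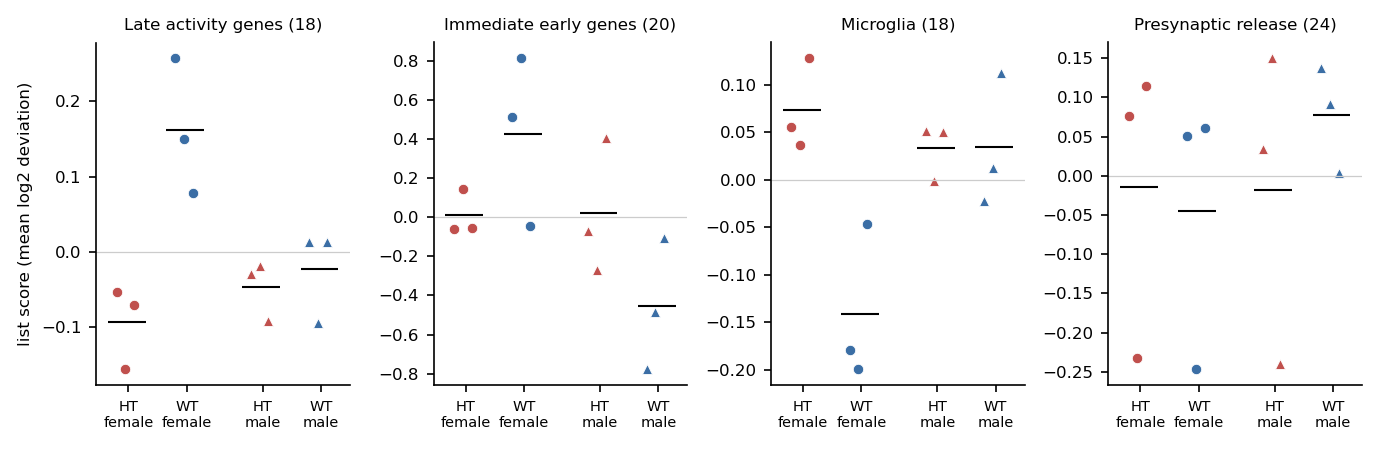
List score, the mean log2 deviation of a list's genes, in each HT and WT vehicle library for late activity genes, immediate early genes, microglial markers and presynaptic release genes, by sex; horizontal lines are means of 3 libraries. HT females lie below WT females for late activity genes and above them for microglial markers, and immediate early gene scores in WT run from -0.78 in a male to 0.81 in a female.

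Genes of the synapse itself were mostly a little lower in HT over both sexes, but for several lists not in females until the bulb score was in the model. For glutamate receptors and the postsynaptic density, 24 of 30 were lower, at a median of -0.034, and 0 of 30 were at an unadjusted p under 0.05 (limma). With the bulb score the median was -0.068 and 8 of 30 were, all lower, against a background of 7.25%. Shank1, a master scaffold, stood at -0.15 ± 0.04 in that fit, and Dlgap1, which links PSD-95 to the SHANK proteins, at -0.12 ± 0.05. Of the presynaptic release genes 20 of 24 were lower (median -0.042), and 23 of 24 with the bulb score (median -0.094). In the second fit 9 were at an unadjusted p under 0.05, all lower (background 7.25%). They included the active zone organiser Pclo (-0.16 ± 0.05), the vesicle phosphoprotein gene Syn1 (-0.14 ± 0.04) and the priming factor Unc13a (-0.12). The presynaptic score was lowest in the 3 bulb-richest libraries, at -0.23 in HT female 2, -0.24 in HT male 3 and -0.25 in WT female 2. By sex and without the bulb score, 15 of 24 were higher in females (median 0.021) and 22 of 24 lower in males (-0.11), and with it the medians were -0.13 in females and -0.089 in males. The genes of the bulb score themselves had medians of -1.88 among females and 0.30 among males. In the fit of both sexes without the score the presynaptic median turned to 0.017 without HT male 3 and 0.001 without HT female 2. It was 0.023 without the 3 bulb-richest libraries.

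GABA-A receptor and inhibitory synapse genes were lower in 15 of 19 cases without the bulb score (median -0.026) and in 18 of 19 with it (-0.065), with Gabra2 at -0.15 ± 0.08 and Gabrg1 at -0.14 ± 0.07 in the first fit. Markers of cortical excitatory neurons were lower in 11 of 19 cases (median -0.033), and in 14 of 19 with the bulb score (-0.091). By sex and without the bulb score, 10 of 19 GABA-A list genes were higher in females (median 0.044) and 15 of 19 lower in males (-0.063), and 10 of 19 excitatory markers were higher in females (0.060) and 15 of 19 lower in males (-0.12). With it, both lists were lower in both sexes, at -0.083 in females and -0.052 in males for the GABA-A list and -0.14 in females and -0.10 in males for the excitatory markers. Without HT male 3, the medians without the bulb score turned to 0.023 for the GABA-A list and 0.033 for the excitatory markers. Slc17a6, the vesicular glutamate transporter of subcortical and early neurons, averaged 423 ± 110 in HT and 543 ± 141 in WT. Among inhibitory neuron markers, 16 of 20 were lower without the bulb score (median -0.11) and 10 of 20 with it (median 0.034), so this direction was not kept. Without the bulb score their median was -0.30 in females and 0.097 in males. Erbb4, the neuregulin receptor of interneurons, stood at 1943 to 2218 in HT and 2114 to 2435 in WT (-0.13 ± 0.05). With the bulb score the neuropeptide gene Sst stood at -0.41 ± 0.15 and Dlx6, on the other side, at 0.47 ± 0.19. In that fit 3 of the 20 were at an unadjusted p under 0.05 in the lower direction (background 7.25%). In the higher direction 1 was (background 5.68%). None of these markers passed the adjusted test.

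Markers of microglia, the resident phagocytes of brain, were higher in HT in 18 of 18 cases, at a median of 0.11, and in 18 of 18 with the bulb score, at 0.089. In bulk tissue more cells of a type and more RNA per cell cannot be told apart. The complement gene C1qc stood at 1095, 1138 and 1242 in HT females and 1191, 996 and 1269 in HT males, against 1058, 933 and 1019 in WT females and 972, 878 and 1107 in WT males (0.22 ± 0.07). The 6 HT libraries were above the WT mean, and the ranges overlapped. The lysosomal protease gene Ctss stood at 1415 to 1552 in HT and 1232 to 1623 in WT (0.15 ± 0.06), and Tmem119, a marker of resident microglia, at 532 to 626 in HT and 500 to 569 in WT (0.14 ± 0.06). These 3 of 18 were at an unadjusted p under 0.05 (background 1.61%). The list stood at 0.20 in females, where 18 of 18 were higher and 8 were at an unadjusted p under 0.05 (background 1.91%). In males it stood at 0.002, with 9 of 18 higher and 0 at such a p. The difference between the sexes was not tested for the list. WT females 1 and 2 held the lowest scores, -0.18 and -0.20, and without WT female 2 the overall median was 0.081.

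Astrocyte markers were higher in 14 of 16 cases (median 0.039), and in 13 of 16 with the bulb score (0.10), where 8 were at an unadjusted p under 0.05 in that direction, against 5.68% of all genes. Aldh1l1, a folate enzyme of astrocytes, averaged 1826 ± 61.1 in HT and 1665 ± 137 in WT (0.14 ± 0.05). With the bulb score the gap junction gene Gja1 stood at 0.17 and the filament gene Gfap at 0.24. Without it Gfap stood at 0.03 ± 0.24. S100b was on the other side, at -0.13 ± 0.09 without the score and -0.07 with it. The astrocyte median was 0.042 with a bulb score built on the linear scale. Myelin genes were lower in 15 of 16 cases, at a median of -0.076, with the iron carrier gene Trf at 2603 ± 716 in HT and 3070 ± 839 in WT. In females 15 of 16 were lower (median -0.18), and in males 9 of 16 were higher (0.031). Scores of myelin ran from -0.49 to 0.51 in HT and -0.33 to 0.50 in WT, and the median was 0.018 without WT female 1, 0.013 without HT male 2 and -0.23 without HT male 1. Oligodendrocyte precursor genes were higher in 8 of 12 cases (median 0.024), with Pdgfra at 0.11 ± 0.06. Endothelial and pericyte genes divided evenly, 9 of 18 higher, with Mfsd2a, the lipid transporter of the blood-brain barrier, at 0.19 ± 0.07 and the VEGF receptor gene Kdr at -0.26 ± 0.13.

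Markers of tissue around the cortex varied widely among libraries of each genotype. Meningeal fibroblast genes were higher in 9 of 12 cases (median 0.063), and in 12 of 12 with the bulb score (0.20). The median without the score was -0.019 in females and 0.17 in males. Their summed level ran from 4681 to 8647 in HT and 4279 to 8494 in WT, and the median was -0.036 without HT male 3, -0.006 without HT female 2 and -0.002 without WT male 2. Of 7 choroid plexus genes tested 5 were higher (median 0.38), with Ttr at 4.4 to 3407 in HT and 2.1 to 74.3 in WT, and Clic6 at 83.3 ± 104 in HT and 17.7 ± 11.7 in WT. Striatal projection neuron genes were higher in 12 of 14 cases (median 0.17), with summed levels of 9233 to 45997 in HT and 9281 to 23990 in WT, and the median turned to -0.24 without HT male 1 and was -0.082 in females and 0.37 in males. Red blood cell genes were lower in 5 of 5 cases (median -0.12), with none at an unadjusted p under 0.05.

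Cytosolic ribosomal protein genes were higher in HT in 58 of 64 cases, at a median of 0.065, and in 61 of 64 with the bulb score, at 0.087, where 17 were at an unadjusted p under 0.05 (background 5.68%). Rps29 averaged 5351 ± 627 in HT and 4622 ± 335 in WT (0.21 ± 0.08), Rps14 4258 ± 184 in HT and 3907 ± 244 in WT, and Rpl41 5676 ± 479 in HT and 5105 ± 259 in WT. Rps27 was on the other side at 67.7 ± 31.2 in HT and 104 ± 37.8 in WT. Ribosomal protein genes have many near-identical pseudogenes, among which reads can be split. In females 34 of 64 were higher, at a median of 0.009, and in males 59 of 64, at 0.12, a difference not tested for the list. HT male 1 held the highest score, and the median over both sexes was 0.037 without it. Nuclear-encoded oxidative phosphorylation genes were higher in 34 of 54 cases at a median of 0.012, but with the bulb score in 26 of 54, at -0.001, where 3 were at an unadjusted p under 0.05, all lower (background 7.25%). Without the score, Ndufa1 of complex I stood at 0.15 ± 0.08.

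Among 13 mitochondrially encoded genes, 2 were at an unadjusted p under 0.05 in opposite directions (background 2.92%). The list median was 0.14 in females and -0.16 in males. The ATP synthase subunit gene mt-Atp6 stood at 11812, 9299 and 11792 in HT females and 14427, 11900 and 15383 in HT males, against 13366, 11495 and 19565 in WT females and 19198, 17228 and 19439 in WT males (-0.42 ± 0.12). mt-Co2, a cytochrome oxidase subunit, averaged 110630 ± 8133 in HT and 91706 ± 14036 in WT (0.28 ± 0.12). Both are transcribed from the same strand, and mt-Atp6 overlaps mt-Atp8, so the split of reads between those neighbours is uncertain.

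Cholesterol synthesis genes were lower in 16 of 22 cases (median -0.049). Of endoplasmic reticulum stress genes 16 of 21 were lower (median -0.044), with the stress transcription factor Xbp1 at 1433 ± 63.7 in HT and 1536 ± 48 in WT, and Trib3, a target of the same pathway, on the other side at 15.8 ± 3.1 in HT and 10.8 ± 3.4 in WT. Heat shock genes were lower in 13 of 17 cases (median -0.068), led by the chaperone genes Hspa4 and Hspa1b, at unadjusted p-values of 0.102 and 0.133. Interferon response genes were higher in 14 of 20 cases (median 0.034), and in 18 of 20 with the bulb score (median 0.12), where Ifit3 stood at 0.28 ± 0.08. Without the score the interferon median was -0.005 in females and 0.080 in males. The cholesterol median was 0.001 without WT female 1, and the first interferon median was -0.010 without HT male 3, -0.001 without HT female 2 and -0.008 without WT male 2.

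Glucocorticoid-induced genes were higher in 12 of 18 cases (median 0.096). The sulfotransferase gene Sult1a1 averaged 249 ± 47.9 in HT and 195 ± 27.3 in WT, and the lipid droplet gene Plin4 74.3 ± 38.5 in HT and 43.1 ± 11.1 in WT. The 18 clock genes had a median near that of all genes, 0.010, with 4 at an unadjusted p under 0.05, 3 higher (background 1.61%) and 1 lower (background 1.31%). Ciart, a repressor of the clock, stood at 771, 763 and 832 in HT females and 768, 793 and 673 in HT males, against 580, 426 and 633 in WT females and 663, 650 and 640 in WT males, without overlap (0.37 ± 0.10). The output factor Dbp averaged 2964 ± 152 in HT and 2529 ± 374 in WT, and Per3 1995 ± 111 in HT and 1747 ± 188 in WT. Arntl, the activator on the other side of the loop, averaged 719 ± 41.5 in HT and 804 ± 63.1 in WT. Of 19 hypoxia response genes 9 were higher (median -0.004), with Hif3a at 342 ± 80.8 in HT and 232 ± 66.0 in WT (0.56 ± 0.18) and the collagen hydroxylase gene P4ha1 at 928 ± 48.9 in HT and 1053 ± 91.6 in WT (-0.18 ± 0.05).

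Of 42 autism risk genes, a list that includes Dyrk1a, 32 were lower in HT (median -0.037), and 31 with the bulb score (-0.045). Cul3, a ubiquitin ligase scaffold, averaged 3200 ± 281 in HT and 3494 ± 154 in WT (-0.13 ± 0.05), and HT male 2, at 3653, was its highest HT library. The chromatin regulators and BAF complex genes were lower in 19 of 28 cases (median -0.020), with none at an unadjusted p under 0.05 over both sexes in either fit. In females 24 of 28 were lower (-0.084), and in males 20 of 28 were higher (0.024). Among the 10 genes tested on each side of Dyrk1a on chromosome 16, 12 of 20 were higher, at log2 fold changes of -0.09 to 0.63, and 0 were called by limma. Of these neighbours 2 were at an unadjusted p under 0.05 (background 2.92%). They were Gm41504, which starts past the end of Dyrk1a, and Lca5l (0.63 ± 0.25 and 0.31 ± 0.11). Gm41504 is a low gene, at means of 18.53 in HT and 12.25 in WT. With the bulb score 5 of 20 were at such a p (background 12.9%).

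Within each sex, limma called 0 genes. In females 615 genes (3.65%) were at an unadjusted p under 0.05, and in males 333 (1.98%), with 0.76% lower, and edgeR called 0 in both. DESeq2 called 6 in females, 1 higher and 5 lower, among them Nr4a3 and Hif3a, and 0 in males. The difference between the sexes in the genotype effect called 0 genes by all 3 tools, with 451 (2.68%) at an unadjusted p under 0.05 in limma, 1.38% of genes in the positive direction and 1.3% in the negative. The smallest p of this difference belonged to Ddx3y, a gene of the Y chromosome, which stood at about 1 read in each HT female and 0 in each WT female. Next were Arid3b, a DNA-binding protein gene, at 170 to 192 in HT females and 254 to 263 in WT females against 181 to 216 in HT males and 177 to 191 in WT males, and Nab2, a corepressor of the EGR factors, at 1129 to 1303 in HT females and 1550 to 1631 in WT females against 1127 to 1274 in HT males and 1055 to 1220 in WT males. In both genes the HT and WT females did not overlap, and the adjusted p of the difference was 0.973.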

How the data were processed

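Bulk RNA sequencing of polyadenylated RNA was made with a stranded kit, per the labels' protocols. The authors deposited 1 table covering 18240 Ensembl genes, whose unit is a normalized signal in which each value is a read count divided by a library factor. Salmon 0.11.2, DESeq2 1.19.11, R 3.6.0 and GRCm38 are named in the submitters' processing notes, with no role stated, and the strand setting of the counting is not given in the sources used here. From the steps of each column whole reads were recovered, with 100% of values whole within 0.01 of a read; in HT female 2 a read is worth 0.997, so that column rests on its low values. GENCODE M21 named 18227 genes.

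Genes with a mean of at least 10 over the 12 libraries (16833) were tested with limma 3.58.1 in R 4.3.3, its variance trend option on and values taken as log2(value + 1), with sex as a block, without and with the olfactory bulb score. The pseudocount of 1 understates fold changes of low genes. The Benjamini-Hochberg adjustment runs over every gene tested in limma and edgeR, and genes under 0.05 after it are called. edgeR 4.0.16 (quasi-likelihood) and DESeq2 1.42.0 were run on the recovered reads as alternatives. DESeq2 kept its default filtering, so some genes got no adjusted p. Its counts are thus not on a like footing with those of limma and edgeR. The steps were tested on simulated data. The 2 libraries most alike of all were HT male 2 and WT male 1, of different genotypes, at a chi-square per gene of 4.53. Within a group the smallest was 5.65. Sampling noise alone gives about 1, so none was counted as a repeat.

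The members and the 33 gene lists were chosen with earlier results of these data known. Named genes are Dyrk1a, the bulb genes, the called genes, the 8 (5 with the bulb score) of smallest p in each direction, the 4 of smallest p in each list, the 3 of smallest p for the sex difference and the 5 non-overlapping genes of largest fold in each direction, and the text gives a selection of these. Others were named after their values were seen: Synj1, Map1b, Unc13a, Dlx6, Gja1, Gfap, S100b, Nptx2, Fos, Rps27, Gm41504 and Lca5l. So were Slc17a7 and Drd2 as markers and Scg2, Cartpt, Gadd45b and Ptgs2 for their promoters. Lists are described by counts and medians beside all genes, with no set test.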

Additional observations from a re-analysis of the deposited data

Results flagged for a closer look

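In 8 of 146 groups of 6 libraries tested, 1 library stood apart from the other 5 of its genotype by Dixon's criterion; chance gives about 1 in 20. Values of genes are log2(value + 1). In HT, Eva1a stood at 7.73 in HT male 2 against 8.10 to 8.25 in the other 5, and Slfn3 at 2.68 in HT female 1 against 3.26 to 3.49. In WT, Fam221b stood at 4.92 in WT female 2 against 5.12 to 5.20, and Map3k15 at 6.37 in WT male 3 against 5.88 to 5.96. Of list scores in HT, the striatal projection neuron list stood at 2.296 in HT male 1, the library of highest Drd2, against -0.75 to 0.19. In WT, WT female 2, the library of the highest bulb score, stood at 0.185 for the DREAM complex and G1 regulators (others -0.13 to -0.01) and at -0.247 for presynaptic vesicle release (others 0.004 to 0.14). Endothelial and pericyte genes stood at 0.175 in WT male 3 against -0.08 to 0.02.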

How the results depend on the processing

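Without the bulb score, the count of called genes was 0 under every alternative run but DESeq2, which called 1. With the bulb score, the 4 calls became 7 with a mean of at least 50, 261 with DESeq2, 0 with a replicate block of sex and number, and 0 to 90 when 1 library was left out. Among alternatives added after seeing the data, they became 0 without the 3 bulb-highest libraries, 0 without the 3 Drd2- or Ttr-highest and 0 with a bulb score on the linear scale. Fits of all 24 libraries called 5 and robust variances 6. In females the 0 calls became 1 with a pseudocount of 0.5 (Ddx3y), 6 with DESeq2 and 0 to 2 when 1 library was left out (Nr4a3 and Wdfy1 without WT female 3). The cause of each was not tested. Dyrk1a ran from 0.08 to 0.12 over the omissions, and the olfactory bulb score in HT vehicle against WT vehicle from -1.74 to -0.52. Same-numbered libraries of a sex correlated at -0.16 to 0.59 in their deviations from the group means, not all above 0.1, so the numbers are not taken as pairs; 3 of 6 HT libraries correlated best with their own number, and with the block alone limma called 0. Among named genes with the bulb score, DESeq2 gave Ucp2 (0.41) and Trp53inp1 (0.49) no adjusted p, and without the 3 bulb-highest libraries Ermn turned to 0.15 and Gabrg1 to 0.07, neither of them called. Of list medians, 4 moved by more than their spread: with the bulb score, ribosomal proteins were at 0.17 and heat shock at -0.03 without the 3 bulb-highest libraries, and the kinases at 0.02 with a linear score; without it, DYRK1A substrates were at -0.04 without the 3 Drd2- or Ttr-highest. Depth was 24771291 to 31705056 reads, and low genes such as Cd209c, Slfn3 and Trib3 rest on few reads per library.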
